A study of Homo sapiens with 16 samples.

Results

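The genes whose protein products deposit N6-methyladenosine (m6A) on RNA were followed here as RNAs that can carry the mark themselves. The members were the 10 genes METTL3, METTL14, WTAP, VIRMA, ZC3H13, RBM15, RBM15B, CBLL1, METTL16 and METTL5, and every m6A region or peak that touched the span of one of them in the GENCODE 44 annotation of hg38 was taken. This gave 29 of the 36970 regions in the deposited merged list, and 169 of the 191974 peaks called in single libraries. The 29 regions fell in 9 of the 10 genes, since METTL5 held none, and no peak in a member gene lay outside a merged region.

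The libraries came from methylated RNA immunoprecipitation and sequencing (MeRIP-seq), in which fragmented total RNA is pulled down with an anti-m6A antibody (IP) and compared with the same RNA without pull down (input). C4-2B is a human prostate cancer line that responds to enzalutamide, and MDV-R is a single resistant line obtained from it by stepwise exposure to this drug and maintained in 5 µM of it. Both are labelled wild type and day 3 of growth, with 4 IP and 4 input libraries per line, and no label says that replicates were separate cultures, so tests measure the spread between these libraries. Resistance and continued exposure to the drug cannot be told apart in this design.

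The core of the m6A writer is a heterodimer of METTL3, the catalytic subunit, and METTL14, which binds RNA and supports the active site. WTAP, VIRMA, ZC3H13, CBLL1 (also known as HAKAI) and the paralogs RBM15 and RBM15B form the regulatory part that holds the heterodimer in the nucleus and brings it to its transcripts. METTL16 and METTL5 are separate enzymes that methylate structured RNAs, METTL16 a spliceosomal small nuclear RNA and hairpins of the MAT2A transcript, and METTL5 ribosomal RNA.

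A search for the m6A sequence context was made in 50 nt on either side of each summit, on the strand of the gene only. The general motif, known as DRACH, is A, G or T, then A or G, then A, then C, then A, C or T, and the stronger core is GGAC, which is also a DRACH match when A, C or T follows it. The 7 stretches below are a selection of the exonic writer summits, so they do not show how often a motif occurs. No stretch was read for VIRMA, whose exon 8 is described below. Stretches of WTAP exon 6, ZC3H13 exon 12 and ZC3H13 exon 15, also described below, are not shown. Capitals mark the match nearest the strongest summit of the region, GGAC where the window held one and DRACH otherwise. They were read 5′ to 3′ from hg38 on the strand of the gene.
METTL3 exon 1, chr14:21511166-21511189, minus strand: agaagcagctGGACtctctgcggg
METTL14 exon 11, chr4:118710139-118710163, plus strand: aatctaaatcTGACCgaggaggtgg
WTAP exon 8, chr6:159755313-159755337, plus strand: caaccgaagaTGACTttccttcttc
ZC3H13 exon 14, chr13:45969716-45969739, minus strand: ggacattataGGACaccaccagtc
ZC3H13 exon 19, chr13:45957182-45957205, minus strand: ccatgctccaGGACatgaaaagac
RBM15B exon 1, chr3:51392976-51392999, plus strand: acctggtgcgGGACaggacgcccc
METTL16 exon 10, chr17:2420271-2420295, minus strand: cccaggaggaAAACCcggaacccac
The match lay 4 nt from the strongest summit in ZC3H13 exon 14, 5 nt in ZC3H13 exon 19 and RBM15B, and 17 nt in WTAP exon 8. Over the 8 lists the summits of these regions spread over 182 nt in ZC3H13 exon 14 and 33 nt in ZC3H13 exon 19. In RBM15B they spread over 247 nt and in WTAP exon 8 over 100 nt, so in other lists the match can lie farther away. Of the 23 writer summits in exons, 21 (91.3%) had a DRACH match in the window, beside 87.8% of the 15819 exonic summits of protein-coding genes, and the 2 without were VIRMA exon 9 and CBLL1 exon 6. GGAC was present in 7 of 23 (30.4%), beside 46.5%, while within 25 nt of the summit it was present in the same number (30.4%), beside 27.8%, so the order of the shares turned with the window. These are descriptions of letters in a window, and a summit does not locate a single methylated adenosine.

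Each IP library gave its own peak list, of 13191 to 24746 peaks in C4-2B and 23880 to 30645 in MDV-R. The statistics of the peaks gave back the depth, with IP libraries of 0.353 ± 0.0423 M fragments (M, 1000000 of them; SD, n = 4) for C4-2B against 0.359 ± 0.0445 M (SD, n = 4) for MDV-R, while the input fragments added up to 103 ± 15.6 Mb and 237 ± 56.8 Mb. The deeper inputs of MDV-R move with the line, and their part in the differences below was not tested. C4-2B replicate 1 had the shortest list, the shallowest input and a median fold enrichment of 7.43 over regions shared by all lists, against 11.2 to 11.5 in the other C4-2B libraries. All 8 prostate luminal markers given here (such as KLK3 and HOXB13) held a region. In all 4 MDV-R lists 7 of the 8 had one, and in all 4 C4-2B lists 5, while TRPM8 had no call in MDV-R. Of 8 bladder or mesenchymal markers, 3 held a region (UPK2, UPK3A and VIM). All 3 had one in all 4 MDV-R lists and 2 in all 4 C4-2B lists. The strongest UPK2 summit also lay in the 5′UTR of BCL9L on the opposite strand. UPK1A, UPK1B, KRT5, CAV1 and AXL had none. The check was made because sample titles of MDV-R carry the name of another line.

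Most writer regions were called in every library of both lines. A region was counted as called in a list when a peak of that list overlapped it, and 17 of the 29 writer regions (58.6%) were called in all 8 lists, beside 25.9% of the 36076 regions called in any list. Writer regions came from spans of protein-coding genes, while all regions include intergenic ones and non-coding genes. These shares and those that follow therefore have different bases. No writer region was called in all 4 lists of one line and in none of the other, beside 4.9% of all regions (1.22% in C4-2B alone and 3.68% in MDV-R alone). The count of lists was higher in MDV-R for 10 of the 29 (34.5%), beside 49.7% of all regions, and higher in C4-2B for 1 (3.45%), beside 18.4%. This excess of MDV-R was smaller with lists of equal size, and its cause was not tested. When only the strongest peaks were kept, as many per library as the shortest list holds, the count was higher in MDV-R for 6 writer regions and in C4-2B for 3, beside 6098 and 5155 of all regions, and of the regions called in one line alone 516 were of MDV-R and 567 of C4-2B, against 1327 and 439 with full lists. The two-sided Fisher's exact test gave its smallest writer p of 0.143 at the region upstream of RBM15, no writer region had an unadjusted p under 0.05, and after Benjamini-Hochberg adjustment over all regions the lowest writer p was 0.997. With 4 lists against 4 this test cannot go below 0.0286, and 1766 of the 36076 regions were under 0.05 without adjustment, all at that floor. Their adjusted p was 0.584, the lowest over all regions. Thus 0 regions passed, and no writer region could have passed.

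**Figure D1:**
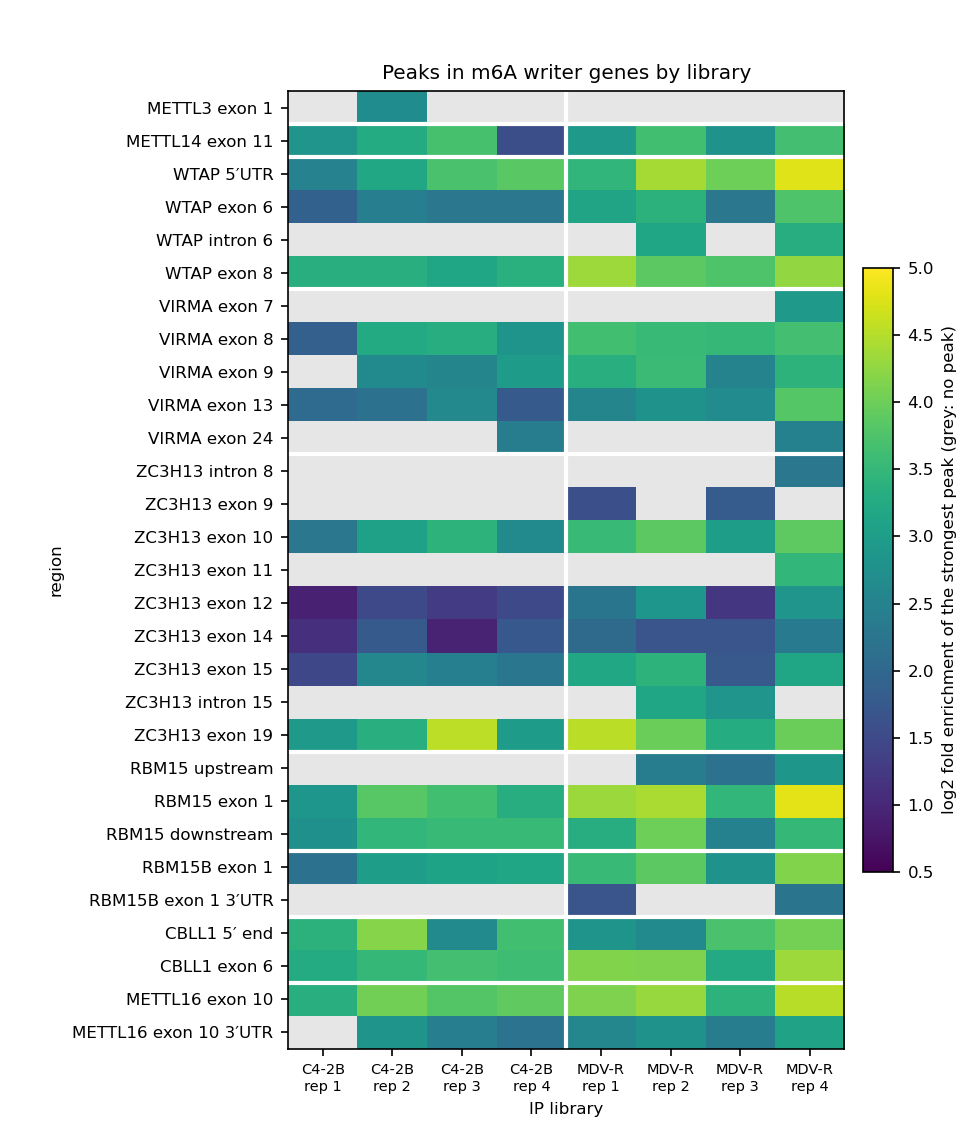
Rows are the 29 regions in the spans of m6A writer genes, grouped by gene from 5′ to 3′, and columns are the 8 IP libraries (4 C4-2B, 4 MDV-R). Colour is the log2 fold enrichment of the strongest peak of that library, and grey marks a library without a peak. The 17 filled rows carry a peak in every library, and no row is filled in one line and empty in the other.

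The core heterodimer held few regions. METTL3 had a single peak, in the coding part of exon 1 (chr14:21511131-21511416), called in C4-2B replicate 2 with 16 fragments at the summit and a fold enrichment of 6.43, and in none of the other 7 lists. A peak list holds values at peaks alone, so the missing calls do not give a level of METTL3 methylation or RNA. METTL14 had 1 region, called in every list, in the last exon (chr4:118709883-118711190) with its summit in the coding sequence 143 nt before the end of the stop codon. Its fold enrichment was 7.16, 9.61, 12.9 and 2.98 in C4-2B replicates 1 to 4 and 7.56, 12.4, 6.94 and 12.6 in MDV-R replicates 1 to 4, so every MDV-R value lay within the C4-2B range (8.16 ± 4.17 and 9.88 ± 3.05). The lowest of the 8 values, C4-2B replicate 4, was the one with the highest local background there.

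WTAP, the adaptor that ties the heterodimer to the regulatory subunits, held 4 regions, 3 of them in every list. The first (chr6:159726146-159727559) lay in the 5′UTR of a transcript that starts upstream, 817 nt before the canonical mRNA, with fold enrichments of 5.66, 9.22, 13.1 and 14.4 in C4-2B and 11.02, 20.9, 15.99 and 27.6 in MDV-R. The exon 6 region (chr6:159747950-159749051) read 3.71, 5.39, 4.88 and 4.84 in C4-2B and 8.78, 10.4, 4.89 and 13.6 in MDV-R, so that 3 of the 4 MDV-R libraries lay above every C4-2B library. The region in the coding part of the last exon, exon 8 (chr6:159754809-159755597), read 9.94, 10.1, 8.81 and 10.3 in C4-2B and 20.2, 14.5, 13.6 and 19.3 in MDV-R. At exon 8 the lines did not overlap, with means of 9.79 ± 0.671 and 16.9 ± 3.31 (a ratio of 1.72), which was one of 2 writer regions where all MDV-R values exceeded all C4-2B values, beside 10.2% of all regions shared by the 8 lists. The reverse occurred at 0 writer regions, beside 0.943%. The other region, in intron 6, was called in MDV-R replicates 2 and 4 only. All WTAP regions also lay inside introns of SOD2 on the opposite strand, and peaks carry no strand.

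VIRMA, the scaffold of the regulatory part, held 5 regions, all with coding summits and spread over exons 7, 8, 9, 13 and 24. In exon 8, of 1141 nt (chr8:94526427-94527403), fold enrichments were 3.68, 9.50, 9.84 and 7.09 in C4-2B and 12.5, 11.6, 11.4 and 12.5 in MDV-R, the other writer region without overlap between lines (means 7.53 ± 2.84 and 12.00 ± 0.597). The MDV-R libraries lay close together there, and C4-2B replicate 1 was the lowest of the 8. The exon 13 region (chr8:94511125-94511781) read 4.23, 4.55, 6.16 and 3.41 in C4-2B and 5.86, 6.90, 6.37 and 14.1 in MDV-R, where replicate 4 stood apart from the other MDV-R libraries. The exon 9 region was called in 7 lists and missed only in C4-2B replicate 1, the shortest list, with values of 6.21, 5.86 and 7.95 in the other C4-2B libraries and 10.1, 11.9, 5.73 and 10.7 in MDV-R. The exon 7 and exon 24 regions appeared in 1 and 2 lists.

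ZC3H13, a zinc finger protein that keeps the complex in the nucleus, held the most regions, 9, against a median of 2 over the 10389 protein-coding genes with a summit, of which 277 held 9 or more. The 5 regions called in every list all had coding summits, in exons 10, 12, 14, 15 and 19, and so ran from exon 10 to the last exon, where the summit lay 71 nt before the end of the stop codon. Fold enrichment differed between them within every library. The exon 19 region (chr13:45956767-45957584) read 7.51, 10.1, 23.5 and 7.80 in C4-2B and 23.2, 15.8, 9.73 and 15.8 in MDV-R. The exon 10 region (chr13:45985336-45986017) read 4.88, 8.41, 10.6 and 6.20 and 11.7, 14.6, 8.13 and 14.8. By contrast the exon 12 region (chr13:45975412-45976031) read 1.89, 2.81, 2.48 and 2.83 and 4.73, 7.26, 2.30 and 7.22, the lowest mean of any writer region in C4-2B. This low ratio stood on a high local background, 172 ± 20.1 times the library mean in C4-2B and 91.02 ± 49.8 times in MDV-R, the highest of all 17 writer regions in either line. The exon 14 region (chr13:45968993-45970173) read 2.18, 3.43, 1.91 and 3.36 and 4.16, 3.22, 3.23 and 5.08, and the exon 15 region (chr13:45967553-45968183) read 2.77, 6.02, 5.43 and 4.83 and 9.02, 10.6, 3.37 and 8.84. In all 5 regions the lines overlapped. The remaining ZC3H13 regions, in exons 9 and 11 and introns 8 and 15, were called in 1 or 2 MDV-R lists and in no C4-2B list, and the intron 8 peak had 6 fragments, the fewest of any writer peak.

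RBM15 and RBM15B, RNA-binding proteins that direct the writer to its targets, each carried 1 wide region over a long coding exon. In RBM15 the region covered exon 1, of 2892 nt (chr1:110339111-110342342), with fold enrichments of 7.24, 14.2, 12.5 and 9.91 in C4-2B and 20.1, 21.6, 11.2 and 28.2 in MDV-R, the highest writer mean of MDV-R (20.3 ± 6.99). Its strongest summit moved by up to 800 nt between lists, against a median of 99 nt over the 17 writer regions and 110 nt over all 9327 regions called in every list. In the single-exon gene RBM15B (chr3:51391225-51394718) the values were 4.61, 8.11, 8.64 and 8.86 and 11.5, 14.5, 6.91 and 17.6, and MDV-R replicate 3 lay inside the C4-2B range in both genes. A second RBM15B region, in the 3′UTR, was called in MDV-R replicates 1 and 4. The other 2 RBM15 regions touched the gene only at its ends. The upstream one had its strongest summit 116 nt before the gene and was called in MDV-R replicates 2, 3 and 4. The downstream one (chr1:110346041-110347839) was called in all 8 lists, with fold enrichments of 6.77, 11.2, 11.7 and 11.8 in C4-2B and 9.88, 16.1, 5.60 and 11.2 in MDV-R, but none of its summits lay in RBM15. The strongest fell 732 nt past its end, in a non-coding exon of LAMTOR5-AS1 on the same strand, and its values may belong to that gene.

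CBLL1, a ubiquitin ligase of the complex, held 2 regions, both in every list. The region in its last exon (chr7:107758045-107759297) had a coding summit 455 nt before the end of the stop codon and read 9.62, 11.3, 12.5 and 12.1 in C4-2B and 17.7, 17.6, 9.50 and 20.3 in MDV-R. The region at the 5′ end (chr7:107742930-107744156) had its summit 748 nt before the canonical mRNA, in an intron of another CBLL1 transcript and in an exon of the antisense RNA CBLL1-AS1, and could belong to either. It read 10.5, 18.1, 6.19 and 12.4 in C4-2B and 7.11, 6.26, 13.1 and 16.6 in MDV-R, one of 3 writer regions with a lower centred mean in MDV-R.

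Of the separate enzymes, METTL16 held 2 regions, both in its last exon of 4548 nt. The coding one (chr17:2419299-2421077), 325 nt before the end of the stop codon, was called in every list with fold enrichments of 10.1, 16.5, 13.8 and 14.9 in C4-2B, the highest writer mean of that line (13.8 ± 2.71), and 17.4, 19.7, 10.6 and 22.9 in MDV-R. The 3′UTR one (chr17:2416136-2416766), 3390 nt past the stop codon, was missed only in C4-2B replicate 1 and read 7.10, 5.36 and 4.62 in the other C4-2B libraries and 5.98, 6.89, 5.25 and 8.49 in MDV-R. METTL5 held no peak in any list. METTL3 and METTL5 have the shortest of the longest exons among the 10 genes, 405 and 417 nt, and the other 8 range from 1172 to 6624 nt.

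**Figure D2:**
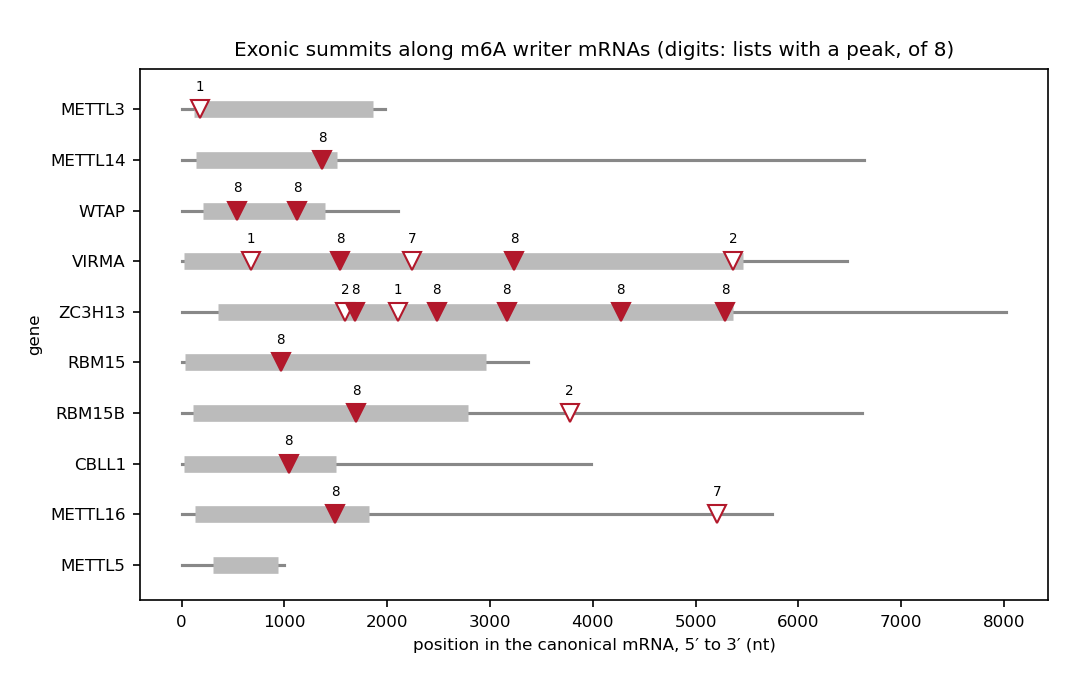
Each line is the canonical mRNA of a writer gene drawn to scale in nt from its 5′ end, thick over the coding sequence, with METTL5 shown without a mark. Triangles are the strongest summit of each region where it lies on this mRNA, filled where a peak was called in all 8 lists. The digit gives the number of lists. All filled marks fall on the coding sequence. The WTAP 5′UTR, CBLL1 5′ end and RBM15 downstream regions, also called in all 8 lists, have summits off this mRNA and are not drawn.

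Writer summits lay in coding sequence in 20 of 29 regions (69.0%), beside 25.2% of the 35509 called regions on the main chromosomes. In the 3′UTR there were 2 (6.90%, beside 13.7%), in a 5′UTR 1 and in introns 4, and 2 summits lay outside the gene. The regions were drawn from spans of protein-coding genes, while all regions include intergenic ones and non-coding genes, so these shares have different bases. Of the 22 summits in an exon of the canonical mRNA, 9 (40.9%) were in the last exon, beside 57.8% of 14290 such summits in all genes, and 3 (13.6%) were within 200 nt of the stop codon, beside 27.2%. The exon under the summit had a median length of 1156.5 nt, beside 1424 nt.

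No writer region had a difference in fold enrichment that passed after adjustment. In the deposited values the means of the 17 regions called in every list ran from 2.50 to 13.8 in C4-2B and from 3.92 to 20.3 in MDV-R. Medians over all 9327 regions called in every list were also higher in most MDV-R libraries (10.1 to 16.6, against 7.43 to 11.5 in C4-2B), so log2 values were centred on the median of each library before limma was fitted over all of these regions. After centring, 0 of the 17 writer regions passed an adjusted p of 0.05, beside 0.847% of all regions higher and 1.79% lower in MDV-R. An unadjusted p under 0.05 was found at 2 writer regions, both higher, beside 824 higher and 850 lower of all 9327 regions, and at 0 with quantile normalization and 9 without centring. These 2 were WTAP exon 6, with a log2 difference (MDV-R minus C4-2B) of 0.52 (95% interval 0.028 to 1.01, adjusted p = 0.254), and ZC3H13 exon 12, with 0.58 (0.049 to 1.12, adjusted p = 0.236). Across the 17 regions 14 differences were above 0, with a median of 0.31, beside 53.4% and a median of 0.034 over all regions. The count was 12 with quantile normalization, and 15 without centring, where the median over all regions was itself 0.44. At WTAP exon 8 and VIRMA exon 8, where the uncentred values did not overlap, the centred differences were 0.37 (adjusted p = 0.474) and 0.37 (adjusted p = 0.47). The lowest was at the CBLL1 5′ end, -0.55 (-1.32 to 0.22). METTL14 was at 0.0077 with an interval of -0.72 to 0.74, which leaves room for a difference in either direction.

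**Figure D3:**
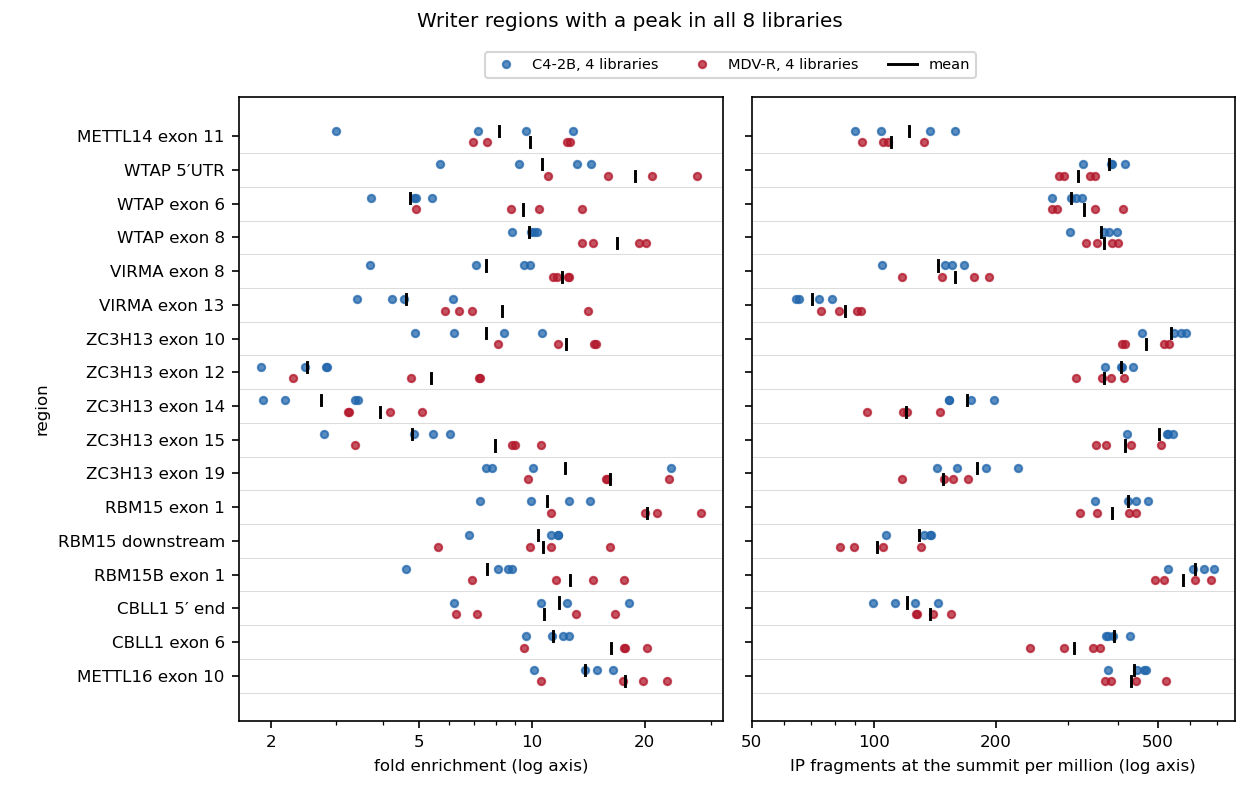
Points are single libraries at the 17 writer regions called in every list, blue for C4-2B and red for MDV-R, with a black bar at the mean of each line; the left panel shows fold enrichment and the right panel summit CPM, on logarithmic axes. For fold enrichment the lines do not overlap at WTAP exon 8 and VIRMA exon 8, and for the IP signal at ZC3H13 exon 14 and CBLL1 exon 6.

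Fold enrichment is a ratio, and its 2 parts were recovered and compared separately. The upper part, IP fragments at the summit per 1000000 IP fragments of the library (summit CPM), was lower in MDV-R at 5 of the 17 writer regions (29.4%), beside 27.0% of all regions, and higher at 0, beside 23.3%. The share of lower regions was thus near that of all regions. Counts behind these values were 21 to 225 fragments at a summit. The scale of summit CPM rests on the derived depth, so its values compare libraries and are not absolute.

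ZC3H13 exon 14 had the largest difference of the 17. Its summit CPM was 153, 198, 153 and 173 in C4-2B and 146, 118, 121 and 95.97 in MDV-R. All C4-2B libraries lay above all MDV-R libraries, by 1.41-fold in the mean (169 ± 21.3 and 120.03 ± 20.3), and the centred log2 difference was -0.48 (SE 0.13, limma adjusted p = 0.0102). ZC3H13 exon 15 read 420.1, 545, 525 and 529 in C4-2B and 430.4, 509, 372 and 352 in MDV-R, which overlapped, with a difference of -0.27 (SE 0.079, adjusted p = 0.0175). The other ZC3H13 regions did not pass, with differences of -0.19 in exon 10, -0.12 in exon 12 and -0.25 in exon 19. All 5 were thus below 0, while 47.6% of all regions were above 0. The 5 lie on 1 gene and are not independent of each other. Their local backgrounds were also below 0, from -0.56 in exon 12 to -0.40 in exon 10, and none of these passed.

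CBLL1 exon 6 read 376, 373, 428 and 387 in C4-2B and 347, 359.8, 295 and 243 in MDV-R, also without overlap (391 ± 25.2 and 311 ± 53.6), and its difference was -0.32 (SE 0.11, adjusted p = 0.0285). With ZC3H13 exon 14 it was one of 2 writer regions where all MDV-R values were lower, beside 14.7% of all regions, and 0 had all values higher, beside 13.3%. The WTAP 5′UTR region read 328, 387, 415 and 384 in C4-2B and 341, 351, 295 and 285 in MDV-R, with a difference of -0.23 (SE 0.075, adjusted p = 0.0252). The region downstream of RBM15, whose summits are in LAMTOR5-AS1, read 107, 133, 137 and 139 and 105, 130.3, 89.4 and 82.6, with a difference of -0.33 (SE 0.089, adjusted p = 0.0108). In these last 2 regions the lines overlapped. These calls changed with the processing, since without centring, or with regions called in at least 3 lists of each line, ZC3H13 exon 14 was the only one of the 5 to pass (adjusted p = 0.0128 and 0.0251). With peaks of −log10 q of at least 5 alone, ZC3H13 exon 14 was no longer in all 8 lists and could not be tested.

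Summit CPM at the remaining regions did not pass. VIRMA exon 13 came nearest on the other side, at 65.6, 73.4, 64.1 and 78.7 in C4-2B and 74.3, 93.1, 82.1 and 90.6 in MDV-R, with a difference of 0.29 (adjusted p = 0.0566). RBM15B had the highest summit CPM of the 17 in both lines, 619 ± 67.5 and 576 ± 86.2, with a difference of -0.086 (95% interval -0.26 to 0.091). METTL16 exon 10 was at -0.011 (-0.19 to 0.17) and WTAP exon 8 at 0.049 (-0.11 to 0.21). METTL14 had 122 ± 31.1 and 109.99 ± 16.6, with a difference of -0.11 (-0.44 to 0.22).

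The lower part of the ratio, the local background computed by the peak caller from the input, follows the RNA level near the peak only roughly. Values are multiples of the mean background in each library. No writer region passed after centring (0 of 17), beside 5.95% of all regions higher and 6.89% lower in MDV-R, and 2 had an unadjusted p under 0.05, both lower, beside 1302 higher and 1433 lower of all 9327 regions. With quantile normalization 0 had one. The 2 were ZC3H13 exon 12, with 199.7, 151, 171 and 167 in C4-2B, 84.6, 55.6, 163 and 60.6 in MDV-R and a difference of -0.56 (adjusted p = 0.107; -0.14 with quantile normalization), and RBM15 exon 1, with 46.6, 28.5, 36.9 and 45.97, 20.6, 17.2, 35.7 and 11.1 and -0.51 (adjusted p = 0.158). Differences were below 0 at 14 of the 17 regions, with a median of -0.29, beside a median of 0.0081 over all regions, of which 50.5% were above 0. With quantile normalization 12 were below 0 and the median was -0.091. Before centring, ZC3H13 exon 14 and VIRMA exon 8 had all MDV-R values below all C4-2B values, beside 15.5% of all regions, and 0 had all above, beside 2.09%. At ZC3H13 exon 14 the background was 69.9, 58.6, 82.6 and 54.5 in C4-2B and 35.04, 35.4, 43.2 and 21.03 in MDV-R, so that there both parts of the ratio were lower in MDV-R and the centred fold enrichment differed by 0.15 (-0.40 to 0.70). At the CBLL1 5′ end the background went the other way, 1.07 (-0.043 to 2.19).

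**Figure D4:**
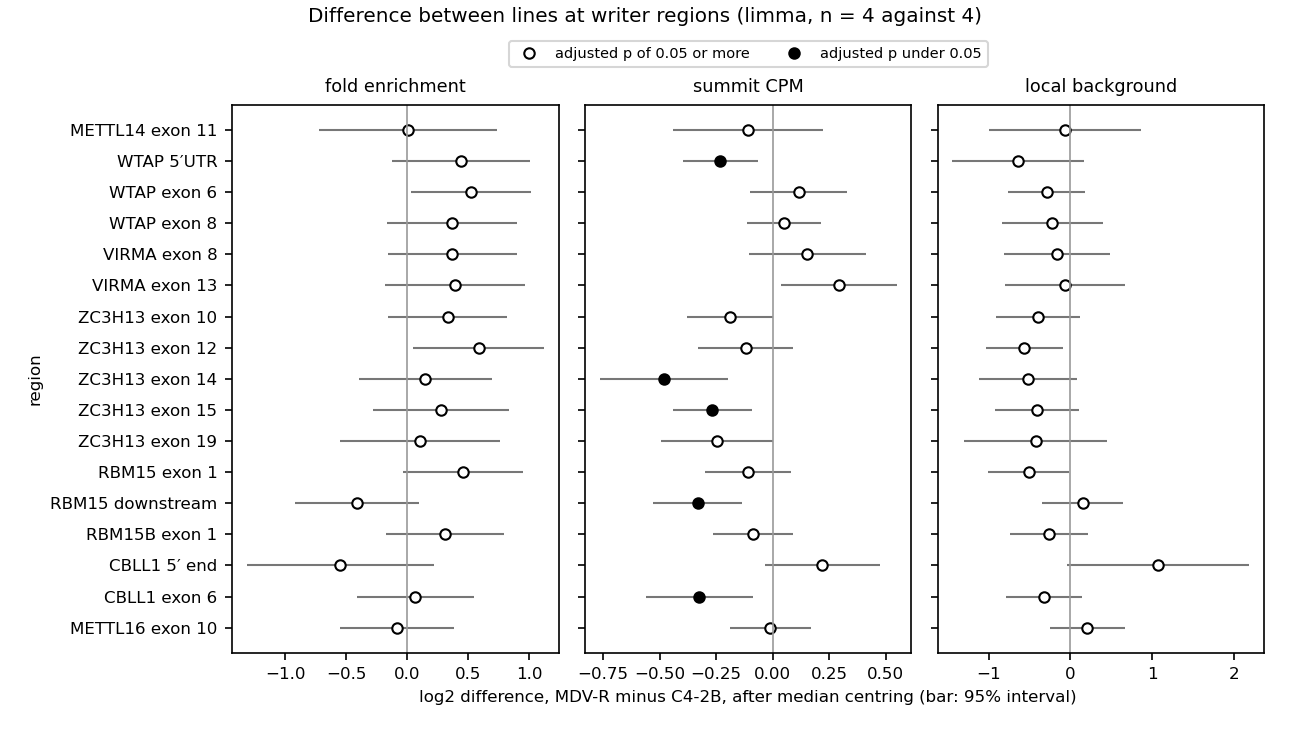
Log2 differences between lines (MDV-R minus C4-2B, n = 4 each) at the 17 writer regions called in every list, after median centring, for fold enrichment, summit CPM and local background. Bars are 95% intervals, and the filled points are the 5 regions with an adjusted p under 0.05, all of summit CPM and all below 0.

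Among 7 other genes of adenosine methylation and S-adenosylmethionine supply, 5 held 9 regions, and ZCCHC4 and MAT2B held none. Of the 4 regions called in every list, in PCIF1 (2), METTL4 and AHCY, 0 passed for fold enrichment or background and 1 for summit CPM, at the 5′ end of PCIF1, which was singled out after its value was seen (-0.23, adjusted p = 0.046). That call was lost without centring (adjusted p = 0.272) and on leaving out any 1 list other than MDV-R replicate 3. PCIF1 methylates the adenosine next to the mRNA cap, and that region also lay in an antisense RNA. Of these 9 regions, 2 were called in all 4 MDV-R lists and in no C4-2B list, as were 3.68% of all regions. A difference from the writer genes in this respect was not tested. One lay in METTL4, a related adenosine methyltransferase, in its 5′UTR in exon 2 (chr18:2566889-2567867), with fold enrichments of 5.65, 11.5, 7.24 and 7.26 and 19, 25, 27 and 17 fragments in MDV-R. The GGAC nearest its strongest summit is in capitals in this stretch (chr18:2567592-2567615, minus strand), while its summits in the 4 lists spread over 601 nt.
METTL4 exon 2: tggaggatgtGGACctagtggcta
The other lay at MAT2A, the enzyme that makes S-adenosylmethionine and a known target of METTL16 (chr2:85538804-85539227), with its summit 202 nt before the gene and fold enrichments of 5.20, 5.69, 4.21 and 8.06 in MDV-R. The window around that MAT2A summit held no GGAC or DRACH match. Both the METTL4 and the MAT2A region had a Fisher p of 0.0286 and an adjusted p of 0.584. The MAT2A 3′UTR region (chr2:85544460-85545123), in the exon where METTL16 acts, was called in 3 lists of each line. It read 2.81, 2.66 and 2.89 in C4-2B replicates 2 to 4 and 6.25, 5.54 and 8.26 in MDV-R replicates 1, 2 and 4. It had no value in C4-2B replicate 1 and MDV-R replicate 3, which had the lowest median fold enrichment of their lines (7.43 and 10.1). The share of all regions whose called values separate in this way was not computed. With regions called in at least 3 lists of each line, its log2 difference was 0.88 (SE 0.29, adjusted p = 0.104), its summit CPM differed by -0.038 and its background by -0.88 (adjusted p = 0.0724). This region also lay in the 3′UTR of GGCX on the opposite strand.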

How the data were processed

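Reads were aligned by the authors to hg38 with STAR 2.7.0 and GENCODE 39, filtered to unique reads without duplicates with SAMtools 1.10, and peaks were called per IP library with MACS2 3.0.0a6 (genome size 300 Mb). For each peak the deposited lists give a fold enrichment (a ratio), −log10 p, −log10 q, a score and positions; how the authors merged the lists is not given in the sources used here. IP fragments at a summit and the local background were solved from the fold enrichment, whose parts both have 1 added, and the Poisson p. Whole fragments solved 100% of peaks, with the IP of C4-2B replicate 1 scaled by 0.747. The shortest peak width (239 to 293 nt), not the stated extension, was the fragment length. Depth was scaled by the stated genome size, which was not checked against read counts.

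The strongest peak by −log10 p gave the value of a region. Region calls were compared with Fisher's exact test, and values called in all 8 lists with limma 3.58.1 in R 4.3.3, with Benjamini-Hochberg adjustment at 0.05. On simulated data, 200 of 9327 regions were changed by 2 on the log2 scale. Of these, limma recovered 190 for fold enrichment, 200 for summit CPM and 144 for background. It also called 7, 11 and 9 unchanged regions, in the same order. Writer fold enrichment differences ran from -0.55 to 0.58, and recovery at such smaller sizes was not tested. Summits were classed with GENCODE 44 on the same build, over all transcripts. Every member gene, and each region called in all 8 lists, is named; other pathway genes are named where a region is called in one line only, where fold enrichment passes, and MAT2A in any case. The members and lists were chosen with earlier results of these data known, and 1 marker of the prostate list is not reported here. Alternatives were stricter peaks, equal list sizes, 50% overlap, an own union of peaks, regions in at least 3 lists per line, quantile normalization, no centring, a percentile scale, the ratio without the added 1, the peak of highest fold enrichment, canonical transcripts alone, DRACH, a window of 25 nt, a replicate block and leaving out each list.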

Additional observations from a re-analysis of the deposited data

Results flagged for a closer look

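In 8 of the 102 groups of 4 values at the 17 writer regions, 1 library stood apart from the other 3 of its line (Dixon's test at 95%, which marks about 1 in 20 groups by chance). In C4-2B replicate 1, the library with the shortest list, these were the summit CPM of 420.1 at ZC3H13 exon 15, the fold enrichment of 6.77 and background of 13.3 downstream of RBM15, and the background of 115 at RBM15B exon 1. C4-2B replicate 3 had a fold enrichment of 23.5 at ZC3H13 exon 19. In MDV-R, replicate 4 had a fold enrichment of 14.1 at VIRMA exon 13 and a background of 8.66 at VIRMA exon 8, and replicate 3 had a background of 131 at ZC3H13 exon 15. What set these values apart was not tested.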

How the results depend on the processing

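No fold enrichment or background difference at the 17 writer regions passed under any alternative. The count of lower summit CPM was less stable: it went from 5 to 1 without centring, to 2 (1 lower, 1 higher) with regions called in at least 3 lists of each line, and to between 3 and 6 on leaving out each list (3 to 7 calls in either direction). ZC3H13 exon 14 passed in 13 of 13 alternatives that could test it, the region downstream of RBM15 and ZC3H13 exon 15 in 12 of 14, and CBLL1 exon 6 and WTAP 5′UTR in 8 of 14, while VIRMA exon 13 passed as higher in 4 of 14. CBLL1 exon 6 and WTAP 5′UTR were both lost without C4-2B replicate 1, C4-2B replicate 3 or MDV-R replicate 3, WTAP 5′UTR also without MDV-R replicate 2, and CBLL1 exon 6 without MDV-R replicate 4. Writer regions called in one line numbered 0 to 1 on leaving out each list, the 1 being RBM15 upstream without MDV-R replicate 1, and those in all 8 lists fell from 17 to 12 with lists of equal size. DRACH in place of GGAC gave 21 summits of 23.

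Same-numbered replicates did not deviate together (correlations from -0.075 to 0.044), so the numbers do not pair the libraries; the replicate block gave 6 lower summit CPM calls in place of 5 and 0 for the other measures, and the sign test over pairs cannot go below 0.125.

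Some differences changed sign, and not all of these were near 0. For METTL16 exon 10 these were fold enrichment at 0.32 without centring and 1.69 on the percentile scale, summit CPM at 0.057 with at least 3 lists and 0.043 with quantile normalization, and background at -0.28 without centring. RBM15 downstream had a background of -0.34 without centring, against 0.15 with it. Quantile normalization gave backgrounds of 0.074 at RBM15B exon 1 and 0.0073 at WTAP exon 6, against -0.26 and -0.29 with median centring. It gave fold enrichments of -0.044 at METTL14 and -0.052 at ZC3H13 exon 14, and METTL14 was at -0.013 without the added 1. On leaving out each list, fold enrichment ran from -0.46 to 0.23 at METTL14, -0.13 to 0.0079 at METTL16 exon 10, -0.021 to 0.17 at CBLL1 exon 6, -0.064 to 0.30 at ZC3H13 exon 14 and -0.12 to 0.42 at ZC3H13 exon 19. Summit CPM ran from -0.21 to 0.0058 at METTL14 and -0.053 to 0.033 at METTL16 exon 10, and background from -0.29 to 0.34 at METTL14, -0.29 to 0.054 at VIRMA exon 8 and -0.27 to 0.13 at VIRMA exon 13. Of 711 such values of single regions, 11 changed sign under another setting and 19 with a list left out.

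Over all regions, fold enrichment calls (79 higher, 167 lower) became 318 and 21 without centring, 136 and 229 with at least 3 lists, 9 and 11 without the added 1, and 98 and 26 on the percentile scale, and ran from 22 to 121 and 71 to 284 on leaving out each list. Summit CPM calls (2169 higher, 2518 lower) became 1334 and 1799 without centring, and background calls (555 and 643) became 155 and 1023 without centring, 397 and 391 with the replicate block, and 312 to 493 and 386 to 496 on leaving out each list. Regions called in one line fell from 1766 to 1083 with lists of equal size. The cause was not tested. Writer summits held 6 to 225 fragments, and a region without a peak has no value, so absence of a call is no measure of absence of m6A.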
